A study of Mus musculus with 2 samples.

Results

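The lysosomal genes described here are 47 genes that encode hydrolases, membrane proteins, proton pump parts and 1 transcription factor of the lysosome. They were taken from a list of 48 symbols, in which *Limp2* is an older name of *Scarb2*, and were counted from digital gene expression (DGE) tags in 2 mouse cell lines. A listed tag was found for 45 of the 47 genes, out of 14450 mouse genes with a listed tag. The symbols were listed by function and not by their values in these libraries, although earlier results of these data were known. The GC-1spg line was made from type B spermatogonia of a mouse 10 days old transformed with pSV3-neo, while the GC-2spd (ts) line was made from spermatocytes of a mouse 6 weeks old with the SV40 large T antigen. Both grew in DMEM that held sodium bicarbonate (1.5 g/L) and FBS (10%), and the RNA had a mean RNA integrity number of 8.9. Each line is an immortalised culture with 1 library, so differences have no replicates behind them, and donor age, line and library cannot be told apart. The comparison asks how transcripts of the lysosome differ between the line from the earlier and the line from the later germ cell.

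The lysosome is the acidic compartment in which cells break down proteins, sugars, lipids and nucleic acids that reach it by endocytosis, phagocytosis and autophagy. Its soluble hydrolases are made in the endoplasmic reticulum, tagged with mannose phosphate in the Golgi and sorted to the compartment by receptors, while a proton pump keeps the lumen acidic and heavily glycosylated proteins line the membrane. The factor TFEB binds a short E-box in the promoters of many of these genes and raises their transcription. In the testis, Sertoli cells digest residual bodies and dead germ cells in their lysosomes, and the acrosome of the spermatid is related to the lysosome.

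In DGE each transcript is counted by a tag made of CATG, the cutting site of *Nla*III, and the 17 bases that follow it. TPM stands for tags in 1000000 clean tags, and since a transcript gives 1 tag whatever its length, levels are not scaled by length. Clean tags numbered 5072149 in GC-1spg against 4726808 in GC-2spd (ts), so that 1 copy was worth 0.197 TPM and 0.212 TPM, respectively. Tags seen once had been removed, so single copies of an unlisted gene would not show. Of 16 germ cell markers only *Tdrd1* was listed, with 0 tags in GC-1spg against 4 tags in GC-2spd (ts), so the germ cell markers were nearly absent from both libraries. Of 12 fibroblast markers 10 were listed, with 3 called higher in GC-2spd (ts) and 2 lower, and a sum of 3815 TPM in GC-1spg against 2716 TPM in GC-2spd (ts) of which *Col1a1* made up 2063 and 513 TPM. Of 10 Sertoli cell markers 7 were listed, with 1 called higher (*Gata4*) and 2 lower, and a sum of 155.9 and 53.9 TPM of which *Wt1* made up 122 and 0 TPM. Whether these markers bear on the lysosomal values was not tested. Levels are those of the whole culture, in which fewer cells and less RNA per cell cannot be told apart.

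A gene was called higher or lower in GC-2spd (ts) when the two-sided Audic-Claverie test on the counts gave an FDR (false discovery rate, Benjamini-Hochberg) no higher than 0.001 over all 14450 genes and the absolute log2 ratio of TPM was at least 1. The test compares the 2 libraries, not the conditions. Ratios are given as GC-2spd (ts) over GC-1spg on the log2 scale with an exact 95% interval. With 1 library per line it covers counting error only and no spread between cultures. PCR copies of the same molecule are counted apart, which the interval does not allow for.

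Tags of the called genes are shown because each count is a sum over tags, of which the tag shown can be only a part. For *Man2b1* it held 12 of 33 copies in GC-1spg and 17 of 84 in GC-2spd (ts). Its own log2 ratio was 0.60 (-0.55 to 1.80). For *Fuca1* the tag shown held 14 of 31 and 31 of 70 copies. For every called gene with at least 100 tags over both libraries the most copied tag is given 5′ to 3′ with the *Nla*III site in capitals, and its place in the mouse genome GRCm38 (GENCODE release M21) follows.
Glb1: CATGgctgaacctctgagact, chr9:114474091-114474111, plus strand, 3′ UTR
Gusb: CATGcaaaataaaaatgaatc, chr5:129989023-129989043, minus strand, 3′ UTR
Man2b1: CATGgtgcaccgtcggctgtt, chr8:85095808-85096287, plus strand, coding sequence, across a splice junction
Manba: CATGattgtgtggaaccaaat, chr3:135570717-135570737, plus strand, 3′ UTR
Ids: CATGttatggatcttaccttt, chrX:70343183-70343203, minus strand, 3′ UTR
Fuca1: CATGtcgaccatcgccaagga, chr4:135933063-135933083, plus strand, coding sequence
Asah1: CATGgaacccatcaaagttct, chr8:41341302-41341322, minus strand, 3′ UTR
Smpd1: CATGagagcttgtttggttac, chr7:105558161-105558181, plus strand, 3′ UTR
Ppt1: CATGaaagcaccattagcacc, chr4:122858830-122858850, plus strand, 3′ UTR
Lamp1: CATGttgatccccattgctgt, chr8:13174447-13174467, plus strand, coding sequence of the last exon
Lamp2: CATGaccattataagaaaaga, chrX:38405112-38405132, minus strand, 3′ UTR
Atp6ap1: CATGaacttgaggttccttga, chrX:74304397-74304417, plus strand, 3′ UTR

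Of the 45 listed genes, 12 were called higher in GC-2spd (ts), 2 were called lower and 31 were not called. Among all 14450 genes, 11.7% were called higher and 7.84% lower. All 12 genes called higher had at least 100 tags, a depth that 35 of the 45 genes reached. At that depth 16.5% of 7100 genes were called higher and 8.77% lower, against 12 and 0 of the 35 lysosomal genes. The depth is a sum over both libraries, and both genes called lower fell under it, *Tfeb* with 78 and 21 tags and *Ctsh* with 33 and 4. *Glb1*, with 22 and 86 tags, and *Fuca1*, with 31 and 70, reached it mainly through GC-2spd (ts). The 0 called lower thus depends on the cut. The median log2 ratio, with 0.5 tags added to both counts, was 0.42 over the 45 genes and 0.13 over all genes. Over the genes with at least 100 tags it was 0.59 for the lysosomal genes and 0.20 for all. With TMM scaling the calls over all genes turned to 1292 higher (8.94%) and 1443 lower (9.99%), and those of the lysosomal genes to 11 higher and 2 lower. With edgeR's exact test and an assumed biological coefficient of variation of 0.2 between cultures, 2 of the lysosomal genes were called higher and 0 lower, against 3.54% and 3.38% of all genes. The sum over the 45 genes was 18259 tags in GC-1spg (3600 TPM) against 22239 tags in GC-2spd (ts) (4705 TPM), at a log2 ratio of 0.39 (0.36 to 0.41). By function, 0 of 12 listed proteases and 6 of 15 glycosidases and sulfatases were called higher. So were 3 of 7 lipid hydrolases and activators, 2 of 7 membrane proteins and carriers and 1 of 3 proton pump parts. The groups are small, and 0 of 12 does not separate the proteases from all genes, of which 11.7% were called higher. The difference between these groups was not tested.

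**Figure D1:**
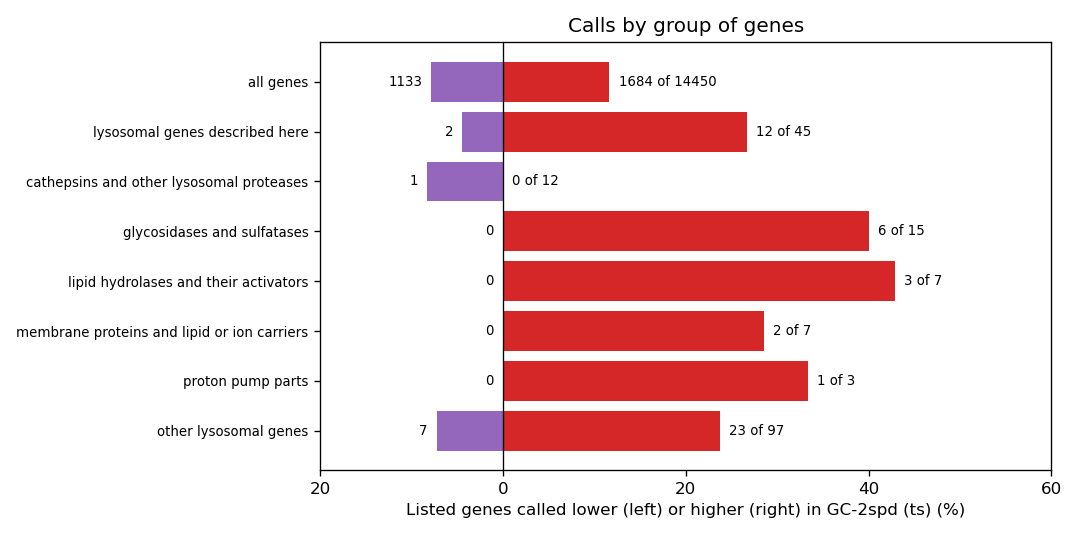
Percentage of listed genes called lower (bars to the left) or higher (bars to the right) in GC-2spd (ts), by group of genes, with the number called beside each bar. The lysosomal genes described here had 12 of 45 called higher, against 1684 of 14450 genes. The proteases had 0 of 12, too few genes to separate them from all genes.

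The cathepsins and the other proteases were the group of hydrolases with the highest summed level and, as a sum, nearly level between the libraries. Their sum was 6733 tags in GC-1spg against 6036 in GC-2spd (ts), or 1327 TPM and 1277 TPM, with a log2 ratio of -0.06 (-0.11 to -0.01). Single proteases lay on both sides of that sum. Cathepsin L (*Ctsl*), a cysteine endopeptidase, had 2569 tags in GC-1spg (506 TPM) against 1395 in GC-2spd (ts) (295 TPM), at a log2 ratio of -0.78 (-0.87 to -0.69). The carboxypeptidase cathepsin Z (*Ctsz*) had 1748 tags (345 TPM) and 1195 tags (253 TPM), with -0.45 (-0.55 to -0.34). Both were lower in GC-2spd (ts) beyond counting error and were short of the threshold of 1 for a call.

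Cathepsin D (*Ctsd*), the main aspartic protease, went the other way, with 826 tags (163 TPM) in GC-1spg against 1343 tags (284 TPM) in GC-2spd (ts), at a log2 ratio of 0.80 (0.68 to 0.93). Cathepsin A (*Ctsa*), a serine carboxypeptidase that also protects β-galactosidase and sialidase, had 608 tags (120 TPM) and 934 tags (198 TPM), with 0.72 (0.57 to 0.87). Cathepsin B (*Ctsb*) had 508 tags (100.2 TPM) and 657 tags (139 TPM), with 0.47 (0.30 to 0.64). These intervals lay above 0 without a call. The tripeptidyl peptidase *Tpp1* had 229 tags (45.1 TPM) and 322 tags (68.1 TPM), with 0.59 (0.34 to 0.84), also above 0. For the asparaginyl endopeptidase legumain (*Lgmn*), with 101 tags (19.9 TPM) and 112 tags (23.7 TPM), the ratio of 0.25 (-0.15 to 0.65) could not be told from 0. Dipeptidyl peptidase 1, also called cathepsin C (*Ctsc*), had 84 tags (16.6 TPM) and 53 tags (11.2 TPM), with -0.56 (-1.09 to -0.05).

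The protease that was called was cathepsin H (*Ctsh*), an aminopeptidase, located at chr9:90054152-90076089. It was lower, with 33 tags (6.51 TPM) in GC-1spg against 4 tags (0.846 TPM) in GC-2spd (ts), at a log2 ratio of -2.94 (-4.90 to -1.45). *Ctsf*, *Ctsk* and *Ctso* were rare, with 2 to 16 tags per library, and were not called. *Ctss*, the cathepsin of antigen-presenting cells, and *Cd68*, a membrane protein of macrophage lysosomes, had no unambiguous sense tag in either library. Macrophage markers were near 0 as well, with 2 of 15 listed (*Cd14* and *Mpeg1*), a sum of 16 tags in GC-1spg against 9 in GC-2spd (ts), and *Ptprc*, *Csf1r*, *Adgre1* and *Itgam* unlisted in both.

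**Figure D2:**
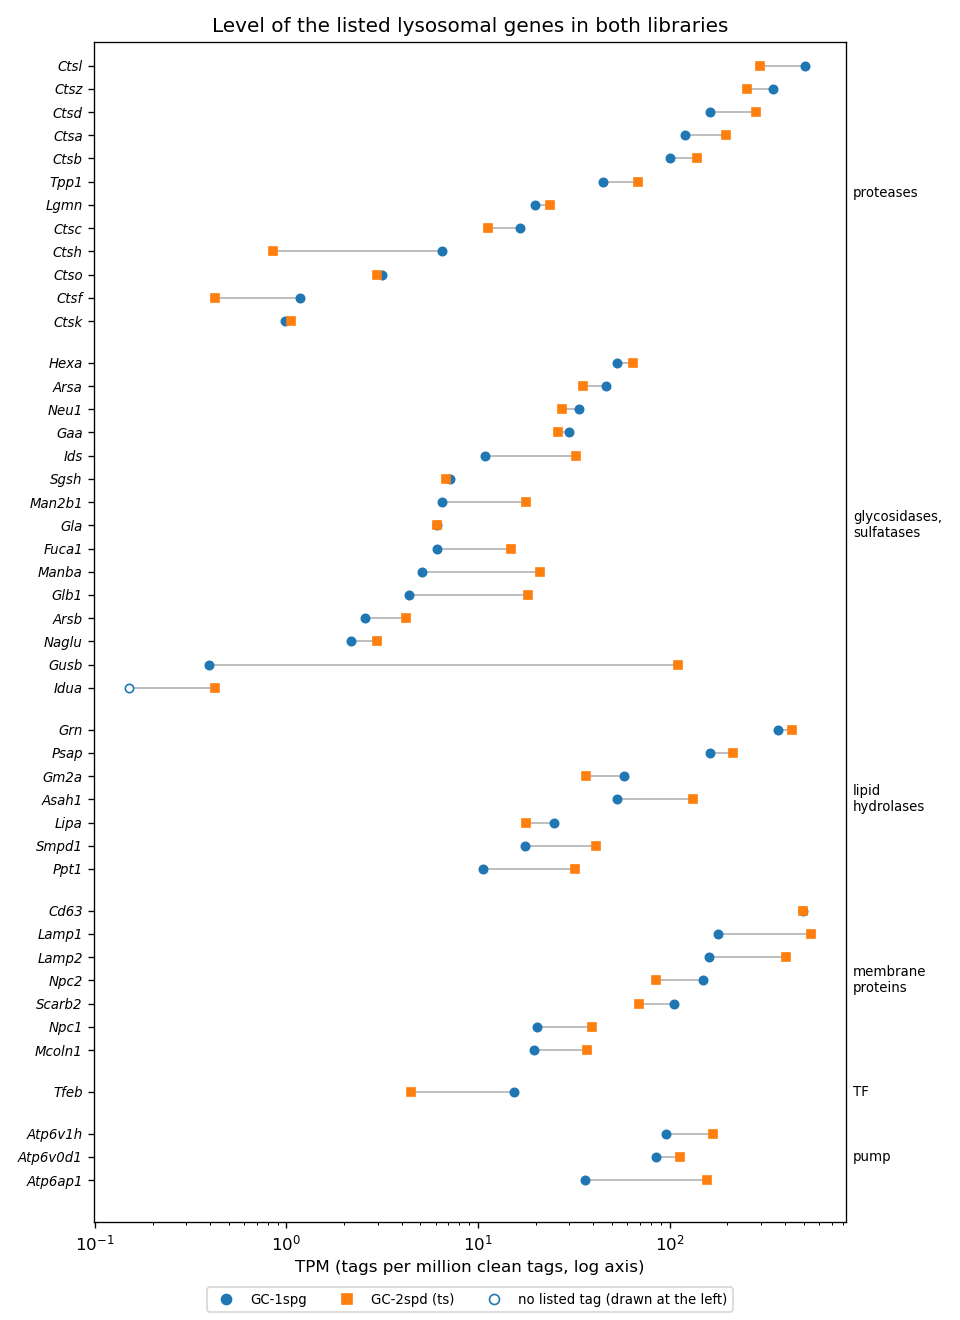
Level in TPM (log axis) of the 45 listed lysosomal genes in GC-1spg (circles) against GC-2spd (ts) (squares), grouped by function, with an open circle for *Idua*, which had no listed tag in GC-1spg. *Ctsl* had 506 and 295 TPM in GC-1spg and GC-2spd (ts), *Lamp1* had 178 and 550.1 TPM, and the circle of *Gusb* leaves out a tag shared with *Rai1*.

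Glycosidases and sulfatases take sugars and sulfate groups off glycoproteins, glycolipids and glycosaminoglycans. Their sum was 1085 tags (214 TPM) in GC-1spg against 1836 tags (388 TPM) in GC-2spd (ts), at a log2 ratio of 0.86 (0.75 to 0.97), which includes the *Gusb* count discussed below. The 6 genes called higher were *Glb1*, *Gusb*, *Man2b1*, *Manba*, *Ids* and *Fuca1*, and none was called lower. β-galactosidase (*Glb1*) had 22 tags (4.34 TPM) in GC-1spg against 86 tags (18.2 TPM) in GC-2spd (ts), at a log2 ratio of 2.07 (1.38 to 2.81). β-mannosidase (*Manba*) had 26 tags (5.13 TPM) and 100 tags (21.2 TPM), with 2.04 (1.41 to 2.73). Both were about 4 times as abundant in GC-2spd (ts), at ratios of 4.20 and 4.13. The *Manba* ratio depended on 2 sites. Its tag shown above had 26 and 61 copies, with 1.33 (0.65 to 2.05), and its tag nearest the 3′ end had 0 and 33. Lysosomal α-mannosidase (*Man2b1*), the other mannose-cleaving enzyme of the list, had 33 tags (6.51 TPM) and 84 tags (17.8 TPM), with 1.45 (0.85 to 2.08). Iduronate sulfatase (*Ids*), which acts on heparan and dermatan sulfate, had 55 tags (10.8 TPM) and 154 tags (32.6 TPM), with 1.59 (1.13 to 2.06). α-fucosidase (*Fuca1*) had 31 tags (6.11 TPM) and 70 tags (14.8 TPM), with 1.28 (0.65 to 1.94), and lost its call with TMM scaling. Enzymes that remove a mannose, a galactose, a fucose or a sulfate were thus among those called.

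β-glucuronidase (*Gusb*) had the largest ratio of the 45 genes, and its size depended on how 1 tag was counted. Counted by the rule, it had 2 tags (0.394 TPM) in GC-1spg against 523 tags (111 TPM) in GC-2spd (ts), at a log2 ratio of 8.13 (6.27 to 11.18). Its reference tag, shown above, had 0 copies in GC-1spg against 451 in GC-2spd (ts). The GC-1spg library instead listed a tag that differs from it by the substitution C5T, with positions counted from 1 at the first base of CATG.
Gusb reference tag: CATGcaaaataaaaatgaatc
Gusb tag with C5T: CATGtaaaataaaaatgaatc
Rai1 reference tag: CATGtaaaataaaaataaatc
The tag with C5T had 234 copies in GC-1spg against 3 in GC-2spd (ts). It lies 1 mismatch from *Gusb* and 1 mismatch from *Rai1*, so it was left out of both, and the *Rai1* reference tag itself had 86 and 34 copies. With the C5T tag added to *Gusb*, the counts became 236 (46.5 TPM) and 526 (111 TPM), and the log2 ratio 1.26 (1.03 to 1.49), a ratio of 2.39, which was still called. The other 7 *Gusb* tags, which do not include this site, had 2 copies in GC-1spg against 72 in GC-2spd (ts), at a log2 ratio of 5.27 (3.37 to 8.34). *Gusb* was therefore higher in GC-2spd (ts) by each count, and which of the ratios holds cannot be settled from the tags.

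Beside these, 4 glycosidases and sulfatases with at least 100 tags were not called. The α subunit of β-hexosaminidase (*Hexa*) had 268 tags (52.8 TPM) and 303 tags (64.1 TPM), with a log2 ratio of 0.28 (0.04 to 0.52). Arylsulfatase A (*Arsa*), which desulfates sulfatide, had 236 tags (46.5 TPM) and 166 tags (35.1 TPM), with -0.41 (-0.70 to -0.11). The sialidase *Neu1* had 170 tags (33.5 TPM) and 129 tags (27.3 TPM), with -0.30 (-0.64 to 0.04), and acid α-glucosidase (*Gaa*), which degrades glycogen, had 151 tags (29.8 TPM) and 124 tags (26.2 TPM), with -0.18 (-0.54 to 0.17). The last 2 intervals span 0. *Gla*, *Sgsh*, *Naglu*, *Arsb* and *Idua* had 0 to 36 tags per library and were not called. *Arsb*, arylsulfatase B, had 13 and 20 tags on its own, and a further 63 and 342 copies of tags that also match the antisense strand of *Gm26527*, mostly from 1 tag with 59 and 327 copies. With those tags the counts of *Arsb* came to 76 and 362, and its log2 ratio of 2.35 (1.99 to 2.73) was called.

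Lipid hydrolases and their activators clear sphingolipids, cholesteryl esters and lipid anchors. Together with progranulin (*Grn*), listed in this group, they summed to 3520 tags (694 TPM) in GC-1spg against 4303 tags (910.3 TPM) in GC-2spd (ts). The log2 ratio was 0.39 (0.33 to 0.46), and *Grn* made up 1860 and 2065 of those tags. Acid ceramidase (*Asah1*) was called higher, with 270 tags (53.2 TPM) in GC-1spg against 623 tags (132 TPM) in GC-2spd (ts), at a log2 ratio of 1.31 (1.10 to 1.52). Acid sphingomyelinase (*Smpd1*), which makes the ceramide that acid ceramidase splits, was called higher too, with 89 tags (17.5 TPM) and 194 tags (41.0 TPM) with a log2 ratio of 1.23 (0.86 to 1.60). The third was palmitoyl-protein thioesterase (*Ppt1*), which takes fatty acids off proteins, with 54 tags (10.6 TPM) and 151 tags (31.9 TPM) and a ratio of 1.59 (1.13 to 2.06). The enzymes that form and split ceramide thus stood 2.34 and 2.48 times as high in GC-2spd (ts).

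*Grn*, the activators and the remaining lipase moved less. Progranulin (*Grn*), the most abundant gene of this group, had 1860 tags (367 TPM) and 2065 tags (437 TPM), at a log2 ratio of 0.25 (0.16 to 0.34). Prosaposin (*Psap*), the precursor of the saposins, had 827 tags (163 TPM) and 1014 tags (215 TPM), with 0.40 (0.26 to 0.53). The GM2 activator (*Gm2a*), the cofactor of β-hexosaminidase, had 294 tags (58.0 TPM) and 172 tags (36.4 TPM), with -0.67 (-0.95 to -0.40). Acid lipase (*Lipa*) had 126 tags (24.8 TPM) and 84 tags (17.8 TPM), with -0.48 (-0.90 to -0.07). *Grn* and *Psap* lay above 0, *Gm2a* and *Lipa* below it, and none was called. With the shift of -0.17 that TMM scaling brought, the lower limit of *Grn*, 0.16, would not stay above 0.

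The membrane proteins and carriers held the largest counts among the called genes. LAMP1 and LAMP2 are the abundant glycoproteins that coat the inner face of the lysosomal membrane. *Lamp1* had 903 tags (178 TPM) in GC-1spg against 2600 tags (550.1 TPM) in GC-2spd (ts), at a log2 ratio of 1.63 (1.52 to 1.74), which was called higher. *Lamp2*, called higher as well, had 811 tags (160 TPM) and 1912 tags (405 TPM), with 1.34 (1.22 to 1.46). In GC-2spd (ts) *Lamp1* had the largest count of the 45 genes, while in GC-1spg *Ctsl* had. The tetraspanin *Cd63*, another main protein of the same membrane, had 2530 tags (499 TPM) and 2362 tags (499.7 TPM), at a log2 ratio of 0.00 (-0.08 to 0.08). The interval of *Cd63* thus lay inside the thresholds, apart from those of *Lamp1* and *Lamp2*.

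The carriers split. LIMP-2 (*Scarb2*), a main glycoprotein of the lysosomal membrane, had 537 tags (106 TPM) in GC-1spg against 326 tags (69.0 TPM) in GC-2spd (ts), at a log2 ratio of -0.62 (-0.82 to -0.42). The cholesterol carriers NPC1 and NPC2, which pass cholesterol on in turn, had opposite signs. The membrane carrier *Npc1* had 103 tags (20.3 TPM) and 186 tags (39.3 TPM), with 0.95 (0.60 to 1.32), whereas the soluble *Npc2* had 760 tags (150 TPM) and 402 tags (85.0 TPM), with -0.82 (-0.99 to -0.64). The cation channel *Mcoln1* had 99 tags (19.5 TPM) and 176 tags (37.2 TPM), with 0.93 (0.57 to 1.30). None of these 4 members of the list was called, although each interval excluded 0.

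**Figure D3:**
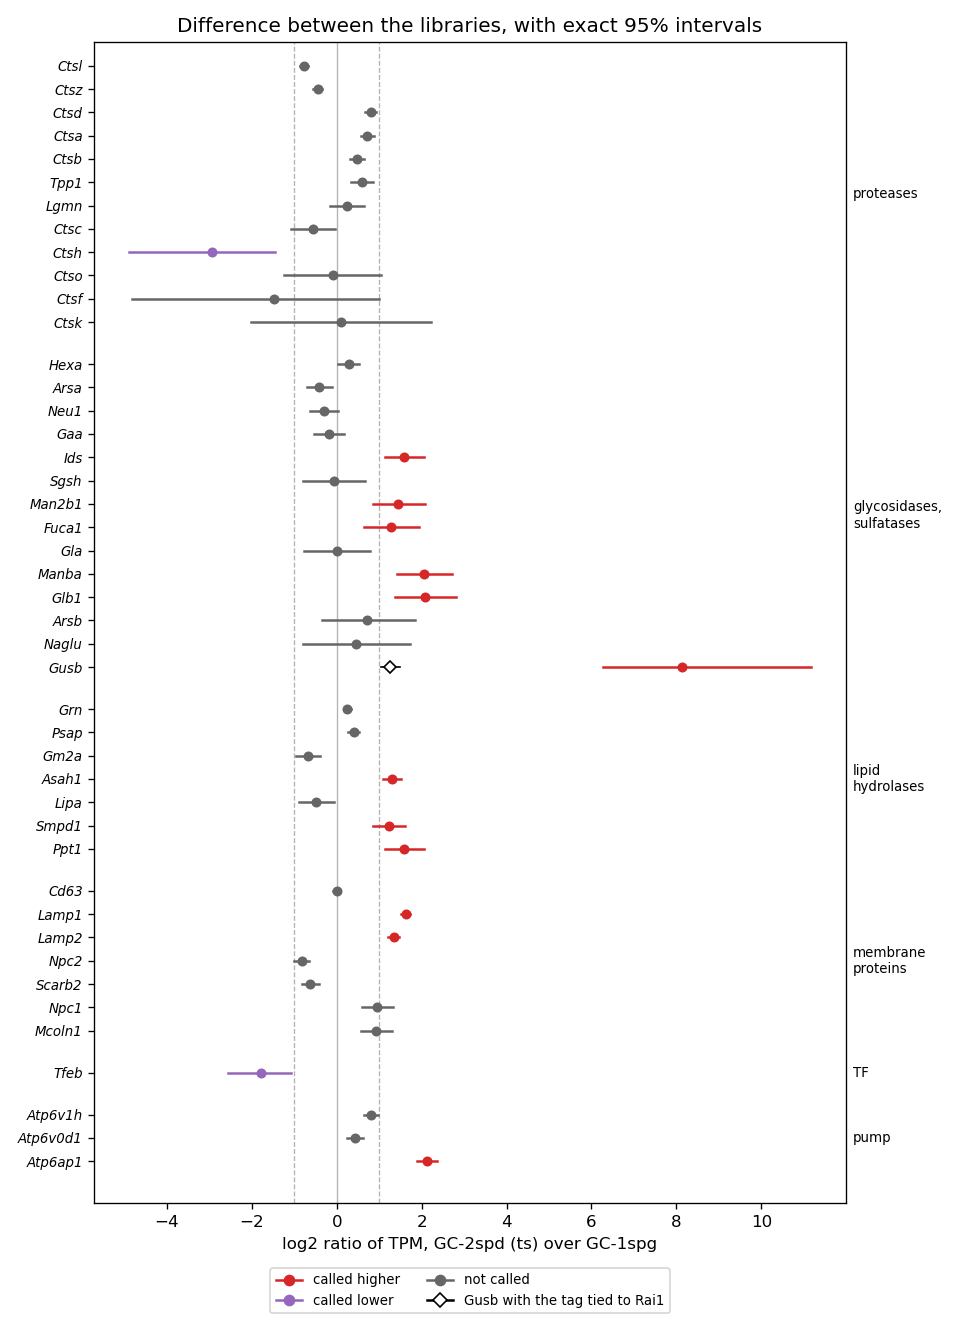
Log2 ratio of TPM, GC-2spd (ts) over GC-1spg, with the exact 95% interval (lines) for the 44 lysosomal genes listed in both libraries, coloured by call, with dashed lines at the thresholds of -1 and 1. The open diamond is *Gusb* with the tag it shares with *Rai1*, at 1.26 in place of 8.13, and the 12 genes called higher lie to the right of 1.

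The proton pump acidifies the lysosome by way of a membrane sector, V0, and a cytosolic sector, V1. Its accessory subunit *Atp6ap1* was called higher, with 183 tags (36.1 TPM) in GC-1spg against 741 tags (157 TPM) in GC-2spd (ts), at a log2 ratio of 2.12 (1.88 to 2.36). The V1 subunit *Atp6v1h* had 487 tags (96.0 TPM) and 800 tags (169 TPM), with 0.82 (0.65 to 0.98), and the V0 subunit *Atp6v0d1* had 430 tags (84.8 TPM) and 538 tags (114 TPM), with 0.43 (0.24 to 0.61). All 3 lay above 0, and the interval of *Atp6ap1* did not overlap those of the other two.

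*Tfeb*, which encodes the transcription factor that activates lysosomal genes and lies at chr17:47737030-47792419, was called lower. It had 78 tags (15.4 TPM) in GC-1spg against 21 tags (4.44 TPM) in GC-2spd (ts), at a log2 ratio of -1.79 (-2.56 to -1.08). Its relatives *Tfe3*, with 147 and 181 tags, and *Mitf*, with 0 and 6 tags, were not called. No protein or phosphorylation state was measured, and nuclear entry of TFEB is regulated apart from its transcript level.

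Over the 23 uncalled members with at least 100 tags, log2 ratios ran from -0.82 to 0.95, with 11 intervals above 0 and 8 below 0. Among all 7100 genes at that depth, 44.6% of intervals lay above 0 and 26.4% below 0, called genes included. With the 12 genes called higher added, 23 of the 35 lysosomal genes lay above 0 and 8 below. The 2 genes called lower are under that depth and are not among the 35. These counts hold for scaling to clean tags. TMM scaling shifted all log2 ratios by -0.17, so an interval that ends near 0 can come to span it or to leave it. The 8 uncalled members under 100 tags had 0 to 36 tags in GC-1spg against 2 to 32 in GC-2spd (ts), a depth at which their ratios could not be told from 0.

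Several genes gave tags from more than 1 CATG site, and the sites did not always differ alike between the libraries. *Lamp2* has alternative last exons, which encode the transmembrane and cytosolic ends of its isoforms. The 2 tags with at least 10% of its copies lie in different last exons.
Lamp2-201: CATGaccattataagaaaaga, chrX:38405112-38405132, minus strand, 3′ UTR
Lamp2-202: CATGttttctcttcaaatgtt, chrX:38419609-38419629, minus strand, 3′ UTR
All tags in the last exon of transcript Lamp2-201 summed to 351 copies in GC-1spg against 1138 in GC-2spd (ts), at a log2 ratio of 1.80 (1.62 to 1.98). Those in the last exon of Lamp2-202 summed to 404 and 631 copies, with 0.74 (0.56 to 0.93). The last exon of Lamp2-203 had 14 and 24 copies, with 0.88 (-0.13 to 1.94). The intervals of the first 2 do not overlap, so the difference in *Lamp2* was larger for tags of the Lamp2-201 end. Counting only the longest transcript left 444 and 746 tags with a log2 ratio of 0.85, which was not called.

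Another 4 genes had a top tag whose share differed by more than 10 percentage points between the libraries, with at least 50 tags in each. Their tags with at least 10% of the copies in either library are shown, apart from those given above.
Tpp1, site 1 from the 3′ end: CATGtagctgggaaacaatca, chr7:105744949-105744969, minus strand, 3′ UTR
Tpp1, site 5: CATGacgagaaagcagaactg, chr7:105746600-105746620, minus strand, 3′ UTR
Ctsc, site 5: CATGgcaaaaaaattagttaa, chr7:88310249-88310269, plus strand, 3′ UTR
Ctsc, site 1: CATGagcgcacacctaaataa, chr7:88310750-88310770, plus strand, 3′ UTR
Ids, site 7: CATGtagtaaggattaggtta, chrX:70345263-70345283, minus strand, 3′ UTR
Ppt1-202, site 1: CATGccttactggagaatcat, chr4:122850121-122850141, plus strand, 3′ UTR
Ppt1-201, site 7: CATGgagattgttttacaact, chr4:122857852-122857872, plus strand, 3′ UTR
In *Tpp1* the tag at the last site had 136 copies in GC-1spg against 145 in GC-2spd (ts), at a log2 ratio of 0.19 (-0.15 to 0.54), and the tag at site 5 had 80 and 168 copies, with 1.17 (0.78 to 1.57). The ratio of 0.59 given for *Tpp1* was therefore the sum of a site near 0 and a site above it, with intervals that do not overlap. In *Ctsc* the main tag, at site 5, had 84 and 42 copies, with -0.90 (-1.47 to -0.35), and the tag at site 1 had 0 and 9 copies. In *Ids* the top tag had 46 and 109 copies, with 1.35 (0.84 to 1.88), and the tag at site 7 had 5 and 26 copies, with 2.48 (1.08 to 4.22), intervals that overlap. The 3 tags of *Ppt1* had ratios of 1.33 (0.77 to 1.92), 1.60 (0.19 to 3.23) and 1.32 (-0.15 to 2.99), all overlapping.

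**Figure D4:**
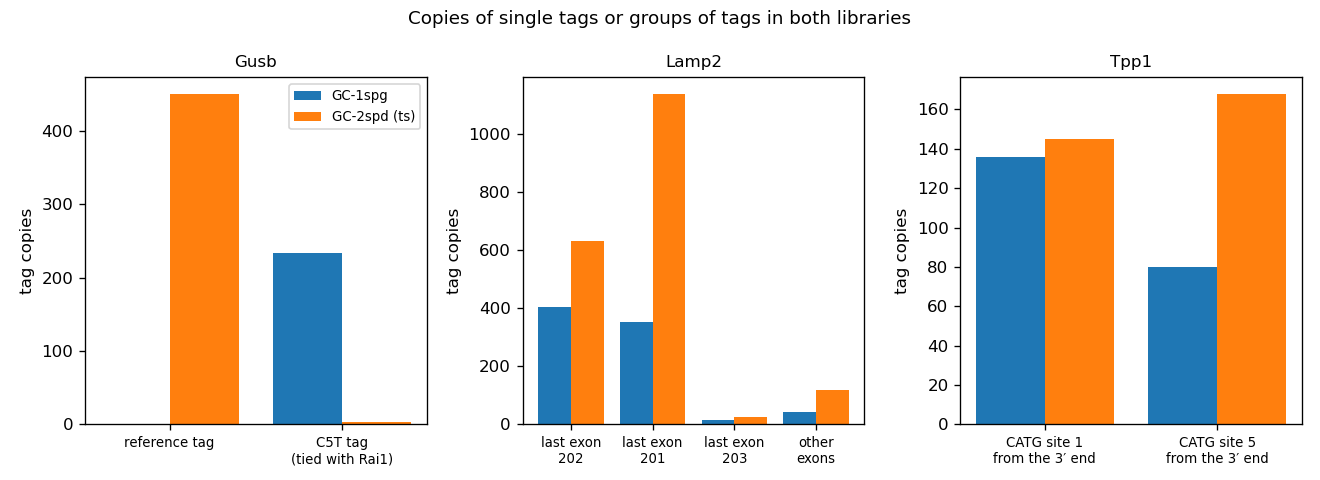
Tag copies (linear axes from 0) in GC-1spg against GC-2spd (ts) for the *Gusb* reference tag and its C5T tag, for the *Lamp2* tags by last exon, and for the *Tpp1* tags at 2 sites. The *Gusb* reference tag had 0 and 451 copies against 234 and 3 for the C5T tag, the Lamp2-201 end had 351 and 1138 copies, and the Lamp2-202 end had 404 and 631.

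The promoters of the list were searched for the E-box core CACGTG, for the longer GTCACGTG, which contains it, and for a still longer palindrome that contains both. The search covered both strands of the 250 bases before to 50 bases after the start of each gene (RefSeq, GRCm38.p6). A promoter was held for 42 of the 47 genes, without *Asah1*, *Atp6v1h*, *Ctsb*, *Ctsh* and *Npc1*. CACGTG was present in 14 of the 42 (33.3%) and in 8.09% of 27025 genes. GTCACGTG was present in 11 of the 42 (26.2%) and in 2.55% of all genes. The longer palindrome was present in 0 of the 42 and in 0.37% of all genes. It is so rare that 0 of 42 does not separate the list from all genes. Among genes called higher, 2 of 11 held CACGTG, and among the uncalled genes 12 of 28 did. The genes called higher with the core were *Lamp1*, with 4 matches, and *Glb1*, with 1. Their windows are shown with the core in capitals and its first base counted from the RefSeq start.
Lamp1, -61: gcaagatatCACGTGgtccagcgc, chr8:13159091-13159114, plus strand
Lamp1, -45: tccagcgccCACGTGatgccgact, chr8:13159107-13159130, plus strand
Lamp1, -28: gccgactggCACGTGaccacatca, chr8:13159124-13159147, plus strand
Lamp1, -15: tgaccacatCACGTGcggaacgga, chr8:13159137-13159160, plus strand
Glb1, -48: cttctgagtCACGTGgcctacaga, chr9:114401021-114401044, plus strand
A match is a string of letters and no measured binding site. The uncalled genes with the core were *Arsa*, *Atp6v0d1*, *Ctsa*, *Ctsd*, *Ctsf*, *Ctsl*, *Gaa*, *Gla*, *Lgmn*, *Mcoln1*, *Naglu* and *Sgsh*, whose log2 ratios lay on both sides of 0.

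Beside the list, 112 other lysosomal genes were counted, of which 97 had a listed tag. Of these, 23 were called higher and 7 lower, beside 11.7% and 7.84% of all genes, and with TMM scaling 16 were called higher and 10 lower. Their median log2 ratio was 0.49, beside 0.13 over all genes. Several of the groups that follow are small, and none was tested as a group. The other hydrolases had 12 of 28 called higher (among them *Galc*, *Hgsnat*, *Aga*, *Dnase2a*, *Sumf1*, *Scpep1*, *Hyal2*, *Ctbs*, *Prcp* and *Dpp7*) and 1 lower (*Creg1*). The most copied *Dnase2a* tag, with 10 and 109 copies, lies in a noncoding transcript of that gene. Among other membrane proteins 3 of 21 were higher (*Glmp*, *Tmem192*, *Slc29a3*) and 1 lower (*Tpcn1*). The other proton pump subunits had 3 of 17 higher (*Atp6ap2*, *Atp6v0b*, *Atp6v1e1*) and 3 lower (*Atp6v0c*, *Atp6v0a4*, *Atp6v0e2*). Of the genes that tag hydrolases with mannose phosphate and sort them, 1 of 15 was higher (*Ap1m1*) and 2 lower (*Gnptab*, a subunit of the tagging enzyme, and *Sort1*, a sorting receptor). Amino acid sensing at the lysosome had 3 of 11 higher (*Lamtor3*, *Rraga*, *Fnip1*), the cystatins, inhibitors of cathepsins, 1 of 3 (*Cst6*), and the TFE factors *Tfe3* and *Mitf* 0 of 2.

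Among the called genes of this wider set, *Atp6ap2*, the other accessory subunit of the pump, had the most tags in the higher direction, with 696 (137 TPM) in GC-1spg against 1818 (385 TPM) in GC-2spd (ts), at a log2 ratio of 1.49 (1.36 to 1.61). The serine carboxypeptidase *Scpep1* followed, with 552 tags (109 TPM) and 1074 tags (227 TPM) with a log2 ratio of 1.06 (0.91 to 1.21), and lost its call with TMM scaling (0.89) and with scaling to unambiguous tags (0.98). Its count rested on a tag pair like that of *Gusb*, since the reference tag had 0 and 928 copies and a tag with C8T had 518 and 0, but here the tag with C8T matched *Scpep1* alone and was counted. In the lower direction the proton channel subunit *Atp6v0c* had 5170 tags (1019 TPM) and 2301 tags (487 TPM), with -1.07 (-1.14 to -0.99), and *Creg1*, a lysosomal glycoprotein, had 429 tags (84.6 TPM) and 198 tags (41.9 TPM), with -1.01 (-1.26 to -0.77). Both accessory subunits of the pump were called higher. The other called subunits went both ways, with *Atp6v0b* and *Atp6v1e1* higher and *Atp6v0c*, *Atp6v0a4* and *Atp6v0e2* lower.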

How the data were processed

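Per the file headers and the values, the authors deposited for each library the tag sequences with their raw counts (copy number) and the same counts as TPM, that is, per 1000000 clean tags. Per the study's methods, tags of adaptors, of low quality or seen once had been taken out, and 1 mismatch was allowed. Their matching program is not named in the sources used here, and the authors' UniGene reference was not used here.

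The deposited counts were matched to all CATG+17 tags of GENCODE M21 transcripts (GRCm38) with at most 1 mismatch, exact matches first. Sense tags whose best matches belonged to 1 gene were summed, 54.7% of clean tags in GC-1spg against 57.9% in GC-2spd (ts). Calls used the two-sided Audic-Claverie test (FDR at most 0.001 over 14450 genes, absolute log2 ratio at least 1, 0.01 TPM for a gene at 0). It was tested on simulated counts with counting noise only, which cannot show how calls hold under spread between cultures. With 1 library per line edgeR's quasi-likelihood test could not be fitted. Intervals are exact (Clopper-Pearson, conditional binomial, 95%). The precision is set by the counts of each gene.

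Values are given for called members and for members with at least 100 tags. Tags are printed for called members with at least 100 tags, and where the share of the top tag differed by over 10 percentage points. Of the other lysosomal genes, values are given for the 2 called genes with the most tags in each direction. Some called genes of that set are not reported here. The genes, lists and tests were chosen with earlier results of these data known. The Lamp2 exon sums and the substitutions were chosen after the values were seen. Alternatives were exact matching, sense matches preferred, the site nearest the 3′ end, the longest transcript, pseudogene or read-through transcripts left out, both strands, TMM scaling, scaling to unambiguous tags, a minimum of 10 tags, 0.5 tags added, edgeR's exact test with an assumed biological coefficient of variation (BCV), fold alone and, added after seeing the data, tags that match 2 genes counted for both. Python 3.11.15 (numpy 2.4.6, pandas 2.3.3, scipy 1.17.1, matplotlib 3.10.9) and R 4.3.3 with edgeR 4.0.16 were used.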

Additional observations from a re-analysis of the deposited data

Results flagged for a closer look

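Tags outside the counts were listed for the same genes. Antisense tags of the lysosomal genes summed to 1618 copies in GC-1spg against 1674 in GC-2spd (ts), beside 18259 and 22239 sense tags, and 38 genes had at least 1. The 9 genes with at least 100 antisense copies over both libraries were *Lamp2* (258 and 524 copies), *Psap* (181 and 194), *Npc2* (224 and 71), *Ctsb* (135 and 97), *Cd63* (136 and 84), *Gm2a* (126 and 76), *Ids* (28 and 107), *Ctsd* (71 and 61) and *Grn* (45 and 59). For *Ctsb* the antisense copies were fewer in GC-2spd (ts) and the sense tags more. Sense tags that match 1 of these genes and 1 other gene equally well summed to 593 copies in GC-1spg against 554 in GC-2spd (ts), over 9 genes. The largest counts among them were those of *Gusb* in GC-1spg (234 copies) and of *Arsb* in GC-2spd (ts) (342 copies), whose values are given above.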

How the results depend on the processing

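With an assumed BCV of 0.2 edgeR's exact test called 511 genes higher and 489 lower, with 2 of the lysosomal genes higher (*Gusb* and *Atp6ap1*, *Gusb* without its shared tag) and 0 lower, and 5 higher and 3 lower of the other lysosomal genes. With a BCV of 0.4 the counts were 108, 136, 1, 0, 0 and 0. The fold alone gave 3497 genes higher and 3106 lower, and 35 and 11 of the other lysosomal genes. TMM scaling shifted all log2 ratios by -0.17, turned the split over all genes from 1684 higher and 1133 lower to 1292 and 1443, and took the call from *Fuca1* (1.10), leaving 11 higher and 2 lower. Counting the site nearest the 3′ end gave 4 lysosomal genes lower, with *Ctsl* (-2.13) and *Npc2* (-1.27) added. It also called *Arsb* (2.57) and *Ctsb* (1.04) higher, took the calls from *Fuca1* (1.15) and *Man2b1* (1.15), and turned *Ctsc* to 7.57 on 0 and 9 tags. *Cd63* changed sign around 0, to -0.003 with the site nearest the 3′ end, -0.023 with both strands, -0.012 with tags of 2 genes counted for both, -0.171 with TMM and -0.081 with scaling to unambiguous tags. The causes were not tested. No paired analysis was possible because each line has 1 library. Depth limits the genes under 100 tags.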
